A study of Mus musculus with 4 samples.

Results

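Serpins are protease inhibitors of 1 fold that trap their target by offering a reactive loop, and the plasminogen activator system is the extracellular cascade that several of them restrain. In that system urokinase, encoded by Plau, is held at the cell surface by its receptor, encoded by Plaur, and cuts plasminogen into plasmin, a protease of fibrin and matrix. In blood-forming tissue the system is known for its use by migrating monocytes and neutrophils, and intracellular serpins of the B clade are known for shielding white cells from their own granule proteases.

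The genes described are 7 serpins (Serpinb2, Serpina3b, Serpina3g, Serpinb1a, Serpine2, Serpinf1 and Serpinb10) with Plau and Plaur, taken as every probe whose annotated symbol is 1 of these 9. A probe was listed for 7 of the 9, with 1 probe each, so 7 probes of the 26512 on the array were read. Serpina3g and Serpine2 had no probe listed under their names and were not analysed here. The study measured total RNA of lineage-negative (Lin–) cells from mouse bone marrow, the fraction left after cells with markers of mature blood lineages are removed. All 4 samples were labelled WT (wild type). In 2 of them FLT3-ITD, an activated form of a growth factor receptor known from acute myeloid leukaemia, had signalled for 48 h, and the other 2 carried the empty vector pMIG. The labels give no promoter for FLT3-ITD, no age or number of animals, and do not say what separates the replicates of a group, so every error or p-value here covers the spread between these 4 samples alone and may be technical. The genes were chosen by their family and by their measured difference between FLT3-ITD and pMIG (intensity and detection p), so their values below describe that difference and do not test it.

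Between 51.5% and 53.5% of probes were detected on each array (detection p under 0.05), and the median intensity of all probes, a level close to background, ran from 103.1 to 107.9. Of the lineage markers that the depletion should remove, Cd4 and Cd8a were detected on no array, Cd3e on 1 pMIG array, and Itgam on all 4, with 4 of the 8 listed without a probe. Of 10 progenitor markers 8 were tested, among them Cd34, Gata2 and Meis1 on all 4 arrays, and Kit had no probe listed. All 12 neutrophil markers were tested, granule genes such as Ltf and Camp included. The brightest probe of Ltf read 31952.8 to 36363.6 and the probe of Camp 8432.9 to 11928.3, far above the array medians.

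Of the 9 genes 7 had a promoter sequence in the reference used, with none for Serpinb1a and Plau. The sequences upstream of 4 of the genes are shown because 3 of these genes (Serpinb2, Serpina3b and Serpinf1) had the widest gaps between the groups and Plaur, the receptor gene, had nearly none. They are the 250 bases before an annotated transcript start in RefSeq (GRCm38.p6), written 5′ to 3′ on the strand of the gene. Capitals mark matches to 6 short motifs that were chosen after the sequences had been seen.
Serpinb2: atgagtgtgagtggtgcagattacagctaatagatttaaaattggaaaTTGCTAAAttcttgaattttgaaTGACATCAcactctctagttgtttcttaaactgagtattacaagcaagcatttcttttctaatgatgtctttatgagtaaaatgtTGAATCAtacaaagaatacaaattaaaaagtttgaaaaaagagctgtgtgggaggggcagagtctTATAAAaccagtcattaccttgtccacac
Serpina3b: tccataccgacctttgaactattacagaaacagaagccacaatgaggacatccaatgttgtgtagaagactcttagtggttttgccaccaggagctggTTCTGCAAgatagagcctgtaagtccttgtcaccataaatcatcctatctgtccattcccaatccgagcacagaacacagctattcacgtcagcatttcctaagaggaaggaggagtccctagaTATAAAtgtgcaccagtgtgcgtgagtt
Serpinf1: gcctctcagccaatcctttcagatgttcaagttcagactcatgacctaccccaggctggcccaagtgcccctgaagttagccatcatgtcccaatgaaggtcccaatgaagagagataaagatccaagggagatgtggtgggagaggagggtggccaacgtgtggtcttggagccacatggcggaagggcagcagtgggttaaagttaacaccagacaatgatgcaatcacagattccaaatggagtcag
Plaur: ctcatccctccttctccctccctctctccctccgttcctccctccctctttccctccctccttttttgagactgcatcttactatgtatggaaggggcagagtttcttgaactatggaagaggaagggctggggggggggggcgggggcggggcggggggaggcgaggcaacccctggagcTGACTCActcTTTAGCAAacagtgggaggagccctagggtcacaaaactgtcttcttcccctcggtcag

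These stretches are chr1:107511173-107511422 and chr12:104127746-104127995 on the plus strand, chr11:75422624-75422873 on the minus strand, and chr7:24462233-24462482 on the plus strand. The starts used for Serpinb2 (chr1:107511423) and Plaur (chr7:24462483) lie inside their annotated gene spans, which begin at 107500892 and 24460937. Motifs were searched on both strands over 300 bases, which adds the 50 bases after the start, and no 2 matches in these genes overlapped (0 overlaps). The Serpinb2 window held a match to each of 5 of the 6 motifs. These were the C/EBP letters TTGCNNAA, a cAMP response element-like TGACNTCA at 179 bases before the start, the AP-1 letters TGANTCA at 94 bases before it, TATAAA at 29 bases before it, and the STAT letters TTCNNNGAA, which begin 11 bases into the transcribed stretch. Another annotated start of Serpinb2 lies 87 bases downstream, and the sequence before the beginning of its annotated span was not searched. Of 32851 promoter windows of that length, 10.8% held the C/EBP letters, 8.83% the cAMP response element-like letters, 7.81% the AP-1 letters, 13.6% TATAAA, 8.3% the STAT letters and 5.8% the NF-κB motif. Serpina3b matched C/EBP and TATAAA, Plaur matched AP-1 and C/EBP, and the Serpinf1 window held 0 matches. The matches are letters in a window and were not shown to be bound.

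Serpinb2 encodes plasminogen activator inhibitor type 2, an inhibitor of urokinase that stays largely inside cells and is known as a gene of activated monocytes and macrophages. Its probe (ILMN_1253874) had deposited intensities of 299.3 and 351.3 with FLT3-ITD, against 126.3 and 117.1 with pMIG. Both FLT3-ITD values lay above both pMIG values, and the pMIG values lay just above the array medians. After background correction and normalization the log2 signal was 7.96 ± 0.11 in FLT3-ITD and 5.33 ± 0.06 in pMIG (SD, n = 2). The log2 difference was 2.63 (SE 0.12), a 6.19-fold higher level in FLT3-ITD, and it was 1.45 without background correction, with a pMIG signal near background. It ranked 8th of the 9948 genes by the size of limma's moderated statistic. The only gene of the 6 tested to pass an adjusted p of 0.05 in that fit over all genes was Serpinb2, where 0.201% of all genes passed, and this count is given for placement because the choice of genes used it. That call was lost with replicate number added as a block (limma adjusted p = 0.0685). It was also lost with any 1 of the 4 arrays left out, as was every other call, with 1 group then at 1 array. That loss is therefore not particular to Serpinb2. The difference itself ran from 2.54 to 2.72 with 1 array left out.

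Serpinb10, which encodes the B-clade serpin bomapin of blood-forming cells, starts 3393 bases beyond the annotated end of Serpinb2 on chromosome 1. Its probe (ILMN_1240353) read 87.7 and 95.6 with FLT3-ITD, against 98.9 and 104.2 with pMIG, with detection p-values of 0.956, 0.439, 0.415 and 0.156. It was detected on no array, so no level or difference is given for it. Among the 11 Serpinb genes with a probe on chromosome 1, 6 were detected on no array and 2 were tested, Serpinb2 and Serpinb3a. The log2 difference of Serpinb3a was -0.27 (SE 0.11, limma adjusted p = 0.286), and its 4 intensities, from 104.8 to 116.8, were close to the array medians. Another probe of Serpinb3a was detected on no array.

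Serpina3b belongs to the mouse Serpina3 cluster on chromosome 12, whose genes are related to human α1-antichymotrypsin. Its probe (ILMN_2611591) read 102.8 and 108.8 with FLT3-ITD, against 159.5 and 149.3 with pMIG. Both FLT3-ITD values lay below both pMIG values and at the level of the array medians, with detection p-values of 0.00831 and 0.0256. The normalized log2 signal was 4.71 ± 0.11 in FLT3-ITD and 6.17 ± 0.06 in pMIG (SD, n = 2), a difference of -1.46 (SE 0.12), or -0.52 without background correction. Serpina3b narrowly missed the threshold (limma adjusted p = 0.0506). Its neighbour in the family, Serpina3f, read 666.3 and 703.6 with FLT3-ITD, against 786.7 and 700.6 with pMIG. The log2 difference of Serpina3f was -0.09 (SE 0.11), and it did not pass (limma adjusted p = 0.729). Genes of the Serpina3 cluster are close copies of each other, and whether their probes read 1 gene each is not known here. Serpina3n, the third of the cluster with a probe, was detected on no array.

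Serpinf1 encodes pigment epithelium-derived factor, a secreted serpin that does not inhibit proteases and is known for blocking vessel growth. Its probe (ILMN_2639239) was bright on all arrays, with 481.1 and 474.2 under FLT3-ITD, against 869.2 and 753.4 under pMIG. Both FLT3-ITD values lay below both pMIG values. The log2 signal was 8.66 ± 0.12 in FLT3-ITD and 9.49 ± 0.03 in pMIG (SD, n = 2), a difference of -0.83 (SE 0.12, limma adjusted p = 0.118). Unlike that of Serpinb2 and Serpina3b, this difference changed little without background correction, at -0.72.

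Serpinb1a encodes an inhibitor of neutrophil elastase, cathepsin G and proteinase 3, the serine proteases of neutrophil granules. Its probe (ILMN_1231573) read 946.8 and 1158.2 with FLT3-ITD, against 1235.2 and 975.8 with pMIG, and the groups overlapped. The log2 difference was -0.01, with a 95% interval from the limma fit of -0.34 to 0.32.

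Plau encodes urokinase, the plasminogen activator that Serpinb2 inhibits. Its probe (ILMN_2629582) read 159.9 and 168.3 with FLT3-ITD, against 170.2 and 130.7 with pMIG, so the deposited intensities of the groups overlapped. After normalization both FLT3-ITD log2 values, 6.43 and 6.41, lay above the pMIG values of 6.31 and 5.75. The pMIG arrays differed from each other by more than the groups did. The log2 difference was 0.39 (95% interval -0.17 to 0.95), or 0.11 without pMIG replicate 2 and 0.66 without pMIG replicate 1.

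Plaur encodes the urokinase receptor, which is anchored in the membrane by a lipid. Its probe (ILMN_2590884) read 678.9 and 688.1 with FLT3-ITD, against 710.9 and 630.2 with pMIG, with both FLT3-ITD values between the pMIG values. The log2 difference was 0.08, with a 95% interval of -0.22 to 0.38. The activator gene and its receptor gene thus had intervals that included 0, beside the difference of 2.63 for the inhibitor gene.

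**Figure D1:**
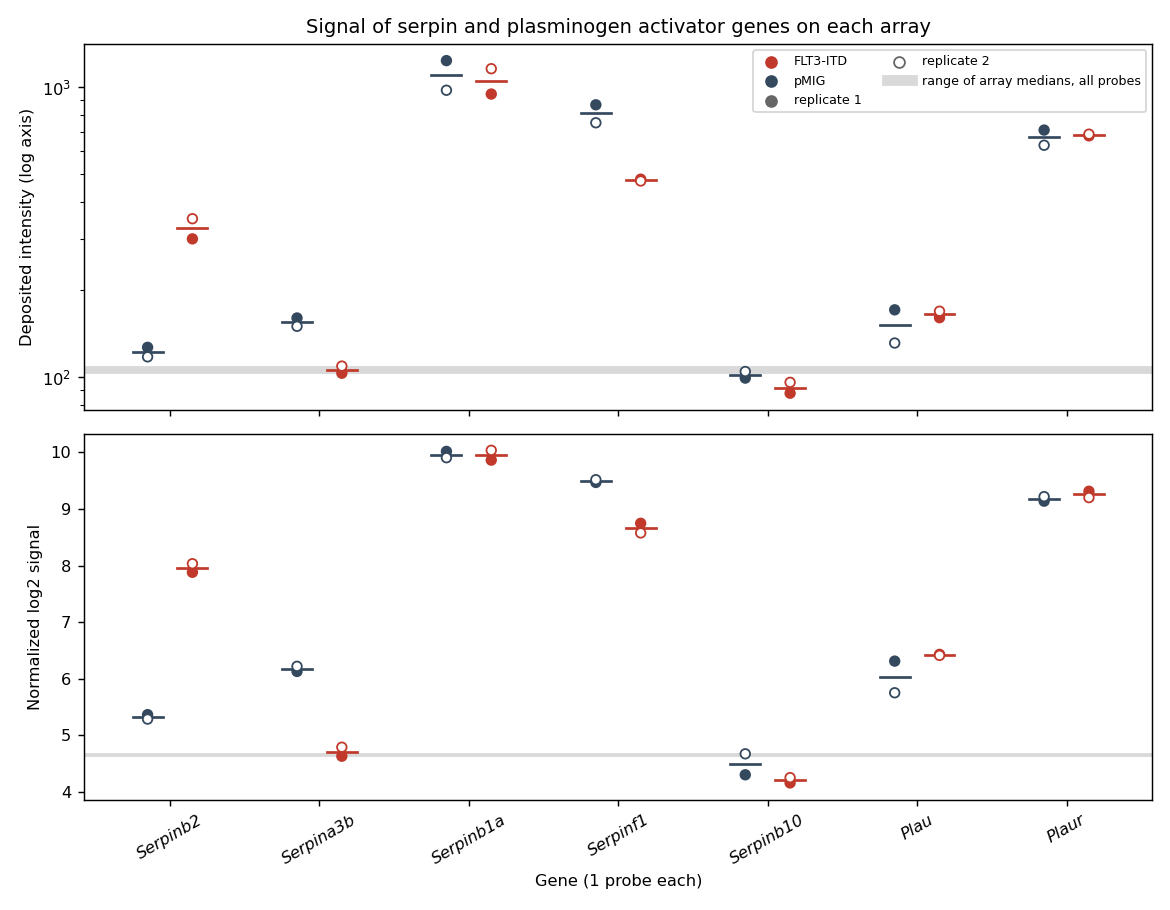
Deposited intensity (top, log axis) and normalized log2 signal (bottom) of the 7 genes with a probe on each of the 4 arrays, with filled points for replicate 1, open points for replicate 2, bars for the mean of 2 arrays and a grey band for the range of array medians over all probes. Serpinb2 is higher and Serpina3b and Serpinf1 are lower on both FLT3-ITD arrays, Serpinb1a and Plaur overlap, and Serpinb10 lies near or below the band.

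Of the 6 genes tested, 2 had both FLT3-ITD arrays above both pMIG arrays (Serpinb2 and Plau), as had 23.8% of all genes, and 2 had them below (Serpina3b and Serpinf1), as had 26.8% of all genes. Nothing is read from these counts, since the choice of genes used the same difference. The median log2 difference of the 6 was 0.03, against -0.02 over all 9948 genes, with a range of -1.46 to 2.63. The 3 genes whose centred log2 values over the 4 arrays lay nearest to those of Serpinb2 were Stfa1 (Euclidean distance 0.28), Cstdc4 (0.32) and Il1b (0.38), with differences of 2.39, 2.33 and 2.27. Nearest to Serpina3b were Treml1 (0.16), Igfbp7 (0.27) and Cldn11 (0.27), with differences of -1.40, -1.23 and -1.21. With 4 arrays, these likenesses mainly restate the size of the group difference.

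The array held probes for 43 other serpins, and 27 of these were detected on no array. Only 8 of the 43 had a probe detected on at least 2 arrays and were tested. In limma 0 of the 8 passed an adjusted p of 0.05, with 1 at an unadjusted p under 0.05, where 18.0% of all genes were, and their median log2 difference was 0.04. That 1, a share not above that of all genes, was Serpinb6a, an intracellular serpin on chromosome 13, which read 660.0 and 622.6 with FLT3-ITD, against 582.5 and 448.0 with pMIG. Its log2 difference was 0.43 (SE 0.14, adjusted p = 0.233), with the groups apart, and it passed with no background correction and with a variance trend. Its near copies Serpinb6b and Serpinb6c differed by 0.09 and -0.10 with overlapping groups, at intensities of 108.3 to 126.5, near the array medians. Serpina1a differed by 0.61 (SE 0.27) with 1 of 2 pMIG arrays detected, Serpini1 by 0.22 and Serpina4-ps1 by -0.01, all at intensities near the array medians. Another probe of Serpina1a was detected on no array. Serpinb9, the granzyme B inhibitor, and Serping1, the inhibitor of complement C1, were detected on no array, as were Serpinh1, the collagen chaperone, and Serpinb8. These 4 were named after their values had been seen.

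The rest of the plasminogen system was followed in a list of 29 gene symbols, of which 23 had a probe and 17 were tested. In limma 0 of the 17 passed, with 5 at an unadjusted p under 0.05 (18.0% of all genes). Their median log2 difference was 0.14, against -0.02 over all genes, and 8 had both FLT3-ITD arrays above both pMIG arrays (23.8% of all genes) while 2 had them below (26.8% of all genes). The subunits of the annexin receptor that binds plasminogen and its activator, Anxa2 and S100a10, differed by 0.37 (SE 0.11) and 0.39 (SE 0.12). Anxa2 read 12122.8 and 13021.0 in FLT3-ITD against 11034.9 and 9542.7 in pMIG. Vldlr, a receptor that takes up complexes of urokinase with its inhibitor, differed by 0.61 (SE 0.13, adjusted p = 0.164). Its 2 other probes detected on all arrays differed by 0.52 and 0.90, and 2 dim ones, each detected on 1 pMIG array, by -0.38 and -0.40. Fpr2, a formyl peptide receptor whose human counterpart binds a fragment of the urokinase receptor, differed by 0.44 (SE 0.11), and Itgam, the integrin chain that partners the receptor, by 0.25. Hgf, the growth factor that urokinase can activate, differed by -0.32 (SE 0.11). The adjusted p of these 6 genes lay between 0.164 and 0.317. Plg and Plat are named for their role in the system. Plg, the plasminogen gene, was near background on every array and was detected on 1 array of each group by its brighter probe, and Plat, which encodes tissue plasminogen activator, was detected on 1 FLT3-ITD array.

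Proteases that these serpins can meet were followed in a list of 24 genes, mostly granule serine proteases with some cathepsins, of which 21 had a probe and 18 were tested. In limma 0 of the 18 passed, with 5 at an unadjusted p under 0.05 (18.0% of all genes). Their median log2 difference was -0.20, against -0.02 over all genes, and 8 had both FLT3-ITD arrays below both pMIG arrays (26.8% of all genes) while 3 had them above (23.8% of all genes). Of the tested genes, Elane, Ctsg and Prtn3 are also in the neutrophil marker list below. Prss34, Mcpt8 and Tpsb2 are also in the mast cell, basophil and eosinophil list. Results of these lists are therefore not separate observations. Prss34 and Cma1, serine proteases of basophils and mast cells, differed by -0.83 (SE 0.12) and -0.74 (SE 0.12), with adjusted p of 0.118 and 0.123. Prss34 read 2541.8 and 2728.0 in FLT3-ITD against 5508.4 and 4124.4 in pMIG, with no overlap. The cysteine protease gene Ctsk differed by -0.53 (SE 0.15). Ctsg and Prtn3, which encode cathepsin G and proteinase 3, targets of the Serpinb1a product, differed by -0.33 and -0.30, each with SE 0.11, beside -0.01 for Serpinb1a itself. St14, the gene of the membrane protease matriptase, differed by 0.58 (SE 0.22, limma adjusted p = 0.282), at intensities near the array medians. Its second probe, detected on 1 of 2 pMIG arrays, differed by 1.01.

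**Figure D2:**
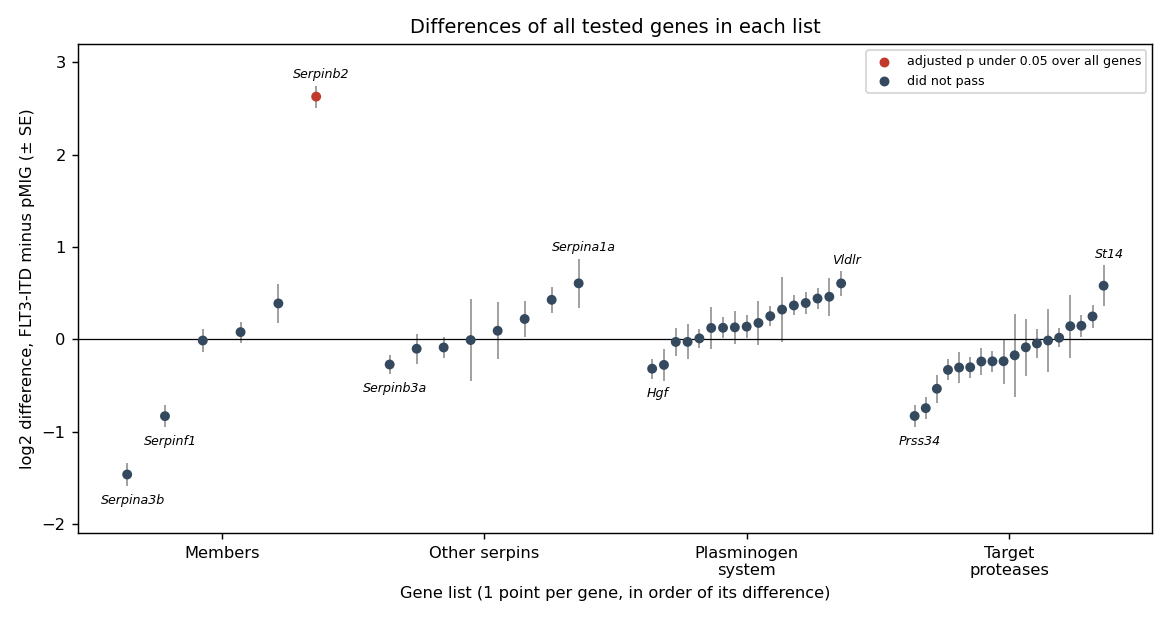
Log2 difference, FLT3-ITD minus pMIG, with its SE, for each tested gene among the 9 described, the other serpins, the plasminogen system and the target proteases, in order of difference within each list. Only Serpinb2 is coloured as past an adjusted p of 0.05, and outside the first list the differences run from -0.83 to 0.61.

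In these bulk samples, fewer cells of a type and less RNA per cell cannot be told apart, and marker lists of several cell types differed between the same groups. For each list the mean log2 signal over its tested genes is given on the FLT3-ITD and then the pMIG arrays. Counts of genes with both FLT3-ITD arrays above or below both pMIG arrays are to be read against the 23.8% and 26.8% of all genes, and medians of log2 differences against -0.02. Monocyte and macrophage markers, the cells Serpinb2 is best known from, averaged 8.42 and 8.52 against 8.26 and 8.27 (9 of 12 listed symbols tested, 0 passed). Among these 9 the arrays were above in 5 and below in 1 with a median difference of 0.07, and Ly86 (0.70) and Mrc1 (0.56) had the largest statistics. The 1 below was Lyz2, the lysozyme gene, at -0.35, named after its value had been seen. Neutrophil markers averaged 12.56 and 12.54 against 12.42 and 12.44 (12 of 12 tested, 0 passed). Among these 12 the arrays were above in 5 and below in 5 with a median of 0.05, and the chemokine receptor gene Cxcr2 differed most, by 1.46. The others above were Mmp8 (0.56), Lcn2 (0.40), S100a8 (0.28) and S100a9 (0.19). Those below were Mpo (-0.43), Ctsg (-0.33), Prtn3 (-0.30), Camp (-0.28) and Elane (-0.24), while Ltf (0.07) and Ngp (0.03) overlapped. These further neutrophil genes were named with their values known. T and natural killer markers averaged 7.58 and 7.72 against 7.40 and 7.56 (5 of 10 tested, 1 passed). The gene that passed was Klrd1, a receptor chain of natural killer cells, at 1.89, while the other 4 had differences below 0 (Nkg7 the lowest at -0.47) and the median of the 5 was -0.19. Dendritic and MHC class II markers averaged 8.777 and 8.827 against 7.978 and 8.001 (8 of 9 tested, 0 passed), with 7 above, 0 below and a median of 1.12. The large differences were those of Cd74, H2-Ab1, H2-Eb1, H2-Aa and Ciita (0.98 to 1.33), genes of the MHC class II part. Of the dendritic part, Siglech differed by 0.17, Batf3 by 0.22 and Itgax by -0.08, and Xcr1 was detected on no array. All of these were named after their values had been seen. B lymphoid markers averaged 6.98 and 7.06 against 6.04 and 6.23 (7 of 10 tested, 1 passed, Vpreb3), with 6 above, 0 below and a median of 0.96. Mast cell, basophil and eosinophil markers averaged 8.003 and 8.089 against 8.625 and 8.640 (12 of 12 tested, 0 passed), with 0 above, 9 below and a median of -0.60. Megakaryocyte and platelet markers averaged 7.18 and 7.20 against 8.01 and 8.01 (8 of 10 tested, 2 passed, Alox12 and Treml1), with 1 above, 6 below and a median of -0.89. Progenitor markers averaged 7.22 and 7.24 against 7.57 and 7.62 (8 of 10 tested, 0 passed), with 0 above, 4 below and a median of -0.29. Erythroid markers averaged 6.39 and 6.38 against 6.11 and 6.22 (6 of 10 tested, 0 passed), with 3 above, 2 below and a median of 0.29. The part of these markers in the differences of Serpinb2, Serpina3b and Serpinf1 was not tested.

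**Figure D3:**
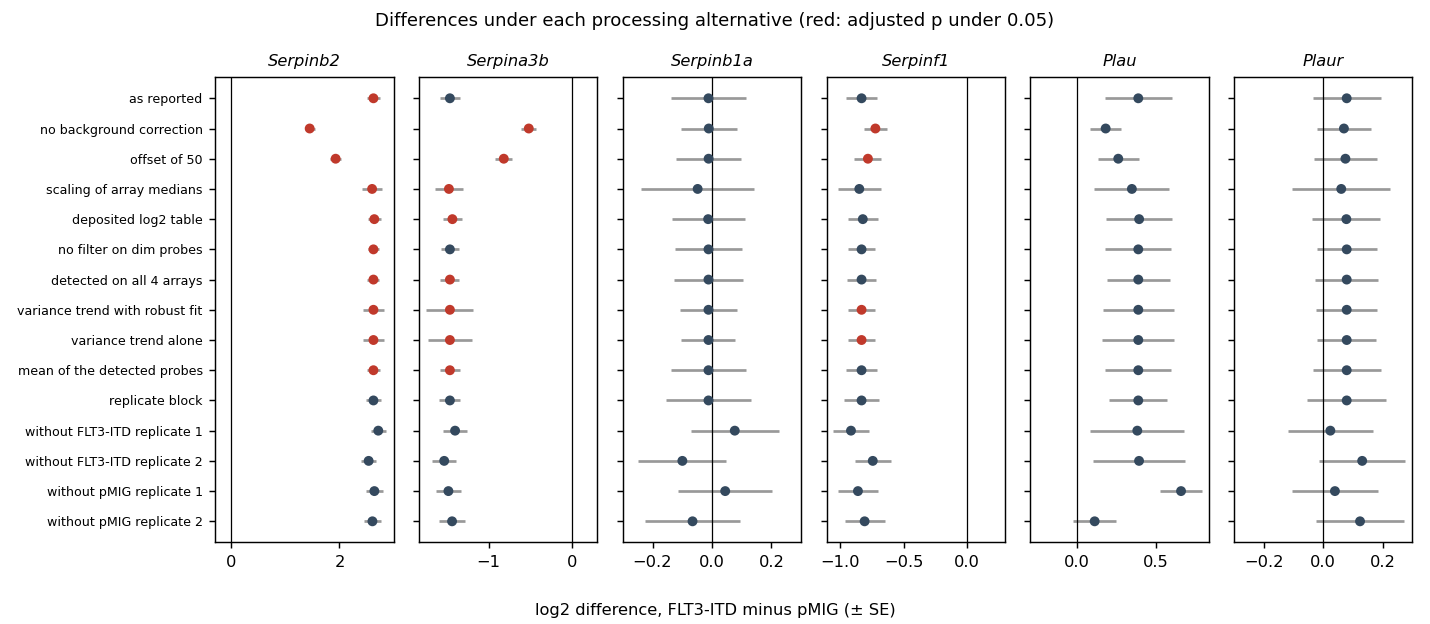
Log2 difference, FLT3-ITD minus pMIG, with its SE, of the 6 tested genes as reported and under 14 processing alternatives, on a scale of its own for each gene, with red points past an adjusted p of 0.05. Serpinb2 stays above 0 and Serpina3b and Serpinf1 below 0 throughout, while Serpinb1a crosses 0.

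Across the 14 alternatives the difference of Serpinb2 ran from 1.45 to 2.72, that of Serpina3b from -1.53 to -0.52 and that of Serpinf1 from -0.91 to -0.72. Serpinb2 passed under 9 of the 14, Serpina3b under 8 and Serpinf1 under 4. Plau ran from 0.11 to 0.66, Plaur from 0.02 to 0.13 and Serpinb1a from -0.10 to 0.08, and none of these 3 passed under any of the 14.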

How the data were processed

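Per the labels' protocols, biotinylated cRNA was made for Illumina arrays. Each of 26512 probes has an intensity on each of 4 arrays, deposited without normalization, and a detection p-value, per the file headers. How either was computed is not given in the sources used here. A second deposited table holds log2 values with medians of 4.79, 4.79, 4.80 and 4.79, in the order of the intensities within each array and at most 0.232 from the values computed here. Their direction is that of the intensities, and how they were background-corrected and centred is not stated.

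Intensities were corrected with normexp using the detection p-values (offset 16, limma 3.58.1, R 4.3.3, statmod 1.5.0) and quantile-normalized as log2. Probes with detection p under 0.05 on at least 2 arrays were kept (14178), the brightest standing for its gene (9948 genes). Symbols came from the platform annotation (24279 probes with 1 symbol, 2233 with none). The groups were compared with limma's moderated test, two-sided, adjusted by Benjamini-Hochberg over all genes. The smallest p of an exact test with 2 arrays a group is 0.333, so calls rest on the spread shared between genes. The steps were run on simulated data with differences planted only in brighter genes, so genes near background were not covered. No result of that run is used here. Precision is limited by the number of arrays.

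The genes described and all lists were chosen with earlier results of these data known. Those named were the 9 genes, every other serpin tested, the 6 genes of largest statistic in the plasminogen and protease lists, the 3 genes nearest to Serpinb2 and Serpina3b, and up to 2 markers per cell type. Outside that rule, progenitor, lineage and neutrophil markers were named for the check of the tissue. Lyz2, the further neutrophil markers, the dendritic and MHC class II markers, Plg, Plat and 4 undetected serpins were named where stated. Genes shared between the protease and marker lists were named for that overlap. Alternatives changed background correction, offset, scaling, filter, variance model, probe choice, replicate block and arrays used.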

Additional observations from a re-analysis of the deposited data

How the results depend on the processing

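Of all genes 20 passed in limma as reported. The count was 898 with no background correction, 391 with an offset of 50, 71 with array medians scaled, 38 with the deposited log2 table, 11 with no filter on dim probes, 71 with detection on all 4 arrays, 1041 with a variance trend and robust fit, 1020 with a trend alone, 41 with the mean of a gene's probes and 6 with the replicate block. With 1 array left out it was 0 to 0, with 1104 to 1337 genes at an unadjusted p under 0.05. Of the 6 genes described 1 passed as reported. This became 3 with no background correction, an offset of 50 or either trend (Serpina3b and Serpinf1 joining Serpinb2), 2 with scaled medians, the deposited table, detection on all 4 arrays or the mean of probes (Serpina3b joining), and 0 with the replicate block or any 1 array left out (0 to 0). The 5 alternatives that lost the Serpinb2 call were these last. Other serpins went from 0 to 1 (Serpinb6a) with no background correction or either trend. Plasminogen system genes went from 0 to 4 under those 3 settings (Anxa2, S100a10, Vldlr and Fpr2) and to 1 with an offset of 50 (Vldlr). Target proteases went from 0 to 5 with no background correction, 2 with an offset of 50 and 6 with either trend, all lower in FLT3-ITD. The cause of these shifts was not tested. The replicate numbers were not taken as pairs because nothing in the labels says what they mark. Deviations of same-numbered arrays correlated at r = -0.02 across genes, which cannot show whether the arrays were paired. Serpinb10, Serpina3b in FLT3-ITD and Serpinb2 in pMIG lay near background, which limits the size of their differences.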
